A study of Drosophila melanogaster with 6 samples.

Results

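The mitochondrial ribosomal protein genes of Drosophila melanogaster were followed through loss of Hlc, a DEAD-box RNA helicase, in S2 cells. S2 is an established line made from fly embryos. Members were taken by symbol, as every row of the count table named mRpL or mRpS followed by a number, and the rule uses no measured value, although the family was chosen with earlier results of these data known. The rule found 73 of 23882 features, 47 of them named for the large subunit (mRpL) and 26 for the small subunit (mRpS). Each group holds 2 libraries, described as biological replicates and collected on day 3. The groups are S2 cells given dsRNA 2 against Hlc, S2 cells given dsRNA 3 against Hlc, and control S2 cells given dsRNA against beta-gal. All 6 libraries therefore come from dsRNA-treated cells, and no untreated cells are among them. The series title ties Hlc to opening of chromatin and to basal transcription at stress genes.

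The mitochondrial ribosome translates the few proteins that mitochondrial DNA encodes, nearly all of them subunits of the respiratory chain. Its ribosomal RNAs are transcribed inside the organelle, while its proteins are encoded in the nucleus, made in the cytosol and imported. Many of these proteins descend from bacterial ribosomal proteins and keep the bacterial number. Others were added after the split from bacteria and carry higher numbers. The small subunit reads the messenger RNA, and the large subunit joins the amino acids and docks at the inner membrane.

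Library totals lay between 56195472 and 84283999 counts, and each member had at least 162 counts in every library. The target transcript was low where Hlc dsRNA was given. Hlc (FBgn0001565) averaged 18.7 ± 1.80 CPM in the Hlc libraries (SD, n = 4) and 316 ± 1.15 CPM in the control libraries (SD, n = 2), where CPM is the count scaled to library size with trimmed mean of M values (TMM) factors. TMM factors were 1.13 to 1.16 in the Hlc libraries and 0.751 and 0.778 in the control libraries, so the choice of scaling moves every change against control. The labels call the cells embryonic stem cells. All 11 blood cell (hemocyte) markers had counts somewhere in the series, although Hml stood under 1 CPM. The blood cell marker NimC1 had 0 CPM in both dsRNA 2 libraries and at most 0.153 CPM in the other libraries. Summed hemocyte markers lay between 11240 and 12340 CPM in the Hlc libraries and between 6098 and 6453 CPM in the control libraries, and the collagen genes vkg and Col4a1 made up most of the sum. The markers did not share a direction, since srp had 221 to 289 CPM in the Hlc libraries and 347 and 395 CPM in the control libraries, crq 261 to 313 CPM in the Hlc libraries and 488 and 496 CPM in the control libraries, and He at most 1.72 CPM in the Hlc libraries and at least 11.01 CPM in the control libraries. Summed neuronal markers covered 64.8 to 77.9 CPM in the Hlc libraries and 62.9 to 70.2 CPM in the control libraries. Most of this sum was brp, and elav had at least 11.5 CPM in the Hlc libraries and at most 8.63 CPM in the control libraries. The neuronal markers nSyb and Syt1 had at most 0.214 CPM in any library. Summed ovarian somatic markers covered 48.1 to 56.7 CPM in the Hlc libraries and 59.96 to 61.05 CPM in the control libraries. Within that sum, Fas3 had at most 0.837 CPM in the Hlc libraries and at least 38.9 CPM in the control libraries, fs(1)Yb at least 33.3 CPM in the Hlc libraries and at most 19.2 CPM in the control libraries, and piwi at least 13.6 CPM in the Hlc libraries and at most 3.43 CPM in the control libraries. Summed muscle and germline markers stayed near 1 CPM or below. The ovarian marker tj was at 0 throughout. The part of these marker differences in the results was not tested. In bulk RNA, fewer cells with a transcript and less of it per cell cannot be told apart.

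With Hlc dsRNA, mitochondrial ribosomal protein genes moved in both directions. Against control, with both Hlc dsRNAs averaged, 27 of the 73 genes rose, 18 fell and 28 were not called (edgeR quasi-likelihood test, adjusted p under 0.05 over 11293 features). All 73 genes passed the filter on low counts and were tested. Among all tested features 64.8% were called, 32.2% higher and 32.6% lower, and among the 73 genes 61.6% were called, 37% higher and 24.7% lower. These shares lie near the background. The median log2 fold change was 0.11 over the 73 genes, against 0.043 over all tested features. Most changes were small, with only 3 called genes beyond 1 on the log2 scale, 13 genes called and at least 0.5 higher, and 6 called and at least 0.5 lower. The 4 Hlc libraries stood above both control libraries for 20 genes, below both for 20 and overlapped them for 33. Of all tested features, 36.2% stood above and 35.4% below in the same sense. Scaling by library size alone, which moves the median of all features to 0.62, gave 63 genes higher and 4 lower, against 56.1% and 16.1% of all features. Across 5 fits (TMM, DESeq2 size factors, upper-quartile factors, library size alone, and the length trend removed), 26 genes were called higher in every fit and 4 lower in every fit. The share of all tested features called alike in every fit was not counted, so this split has no background beside it. The 4 genes called lower in every fit are mRpL28, mRpS22, mRpS9 and mRpL39.

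**Figure D1:**
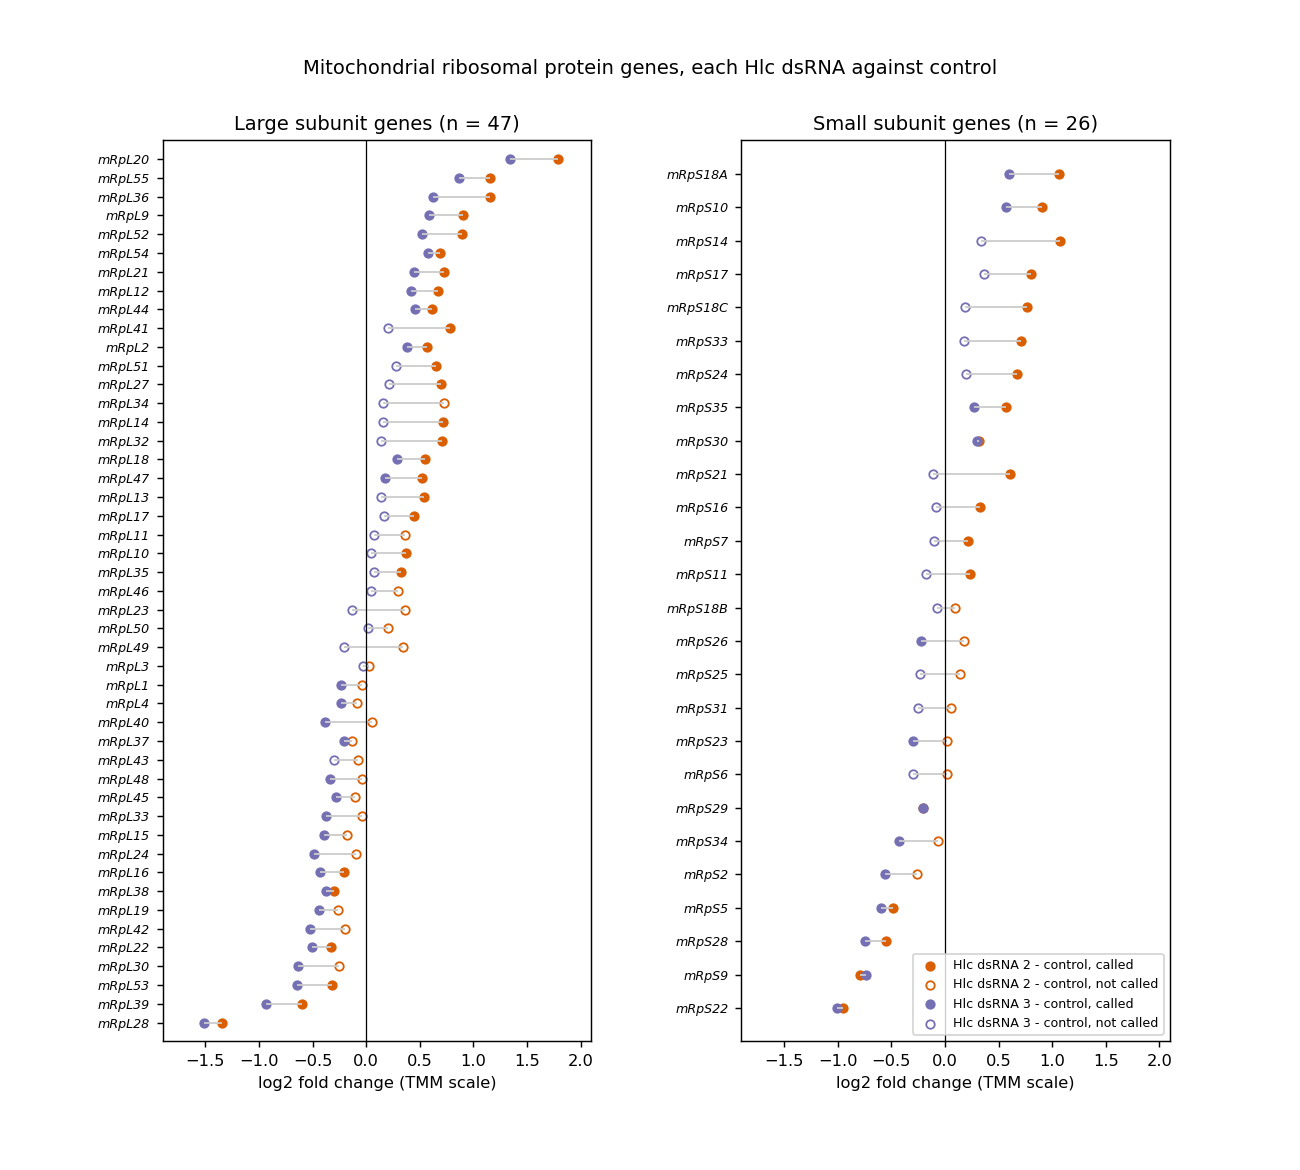
Log2 fold change (TMM scale, horizontal axis) of the 47 large subunit genes and the 26 small subunit genes, ordered by the change with both dsRNAs, for Hlc dsRNA 2 against control and Hlc dsRNA 3 against control; filled points passed the edgeR test. Genes run from mRpL20 (1.56) down to mRpL28 (-1.43), and the dsRNA 3 point lies left of the dsRNA 2 point for 71 of 73 genes; with library size alone 8 of the 18 called falls become called rises.

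Within the large subunit, 19 genes rose, 12 fell and 16 were not called. The shares were 40.4% higher and 25.5% lower, against 32.2% and 32.6% of all tested features. The largest rise was that of mRpL20 (FBgn0036335, chromosome 3L, 13017149 to 13017867 on the minus strand of BDGP6.54). Its bacterial counterpart binds ribosomal RNA early in assembly of the large subunit. It stood at 16.9 and 19.3 CPM with dsRNA 2 and at 15.2 and 11.4 CPM with dsRNA 3, against 5.52 and 4.96 CPM in the control libraries. All 4 Hlc libraries lay above both control libraries, with dsRNA 2 highest, giving a log2 fold change of 1.56 (SE 0.15, edgeR adjusted p 7.95e-05). mRpL55, a mitochondrion-specific subunit (FBgn0038678, chromosome 3R, 19094394 to 19094905, minus strand), had 24.2 and 21.9 CPM with dsRNA 2 and 20.6 and 17.2 CPM with dsRNA 3, against 10.5 and 10.3 CPM in the control libraries. Again no Hlc library overlapped the control libraries, and its log2 fold change was 1.01 (SE 0.11, adjusted p 0.000129).

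mRpL36, the counterpart of a small zinc-binding protein of bacterial ribosomes, had 36.05 and 38.6 CPM with dsRNA 2 and 26.5 and 25.1 CPM with dsRNA 3, against 18.2 and 15.2 CPM in the control libraries (log2 fold change 0.89, SE 0.10, adjusted p 0.000154). The 3 groups formed separate steps, with dsRNA 2 above dsRNA 3 and dsRNA 3 above control. mRpL9, the counterpart of bacterial L9, had 28.3 and 33.7 CPM with dsRNA 2 and 26.3 and 23.3 CPM with dsRNA 3, against 18.1 and 14.96 CPM in the control libraries (0.75, SE 0.12, adjusted p 0.00122). The lowest Hlc library exceeded the highest control library here as well. The mitochondrion-specific mRpL52 rose by 0.71 (SE 0.09, adjusted p 0.000275), and mRpL21, which keeps its bacterial number, rose by 0.59 (SE 0.10, adjusted p 0.00169).

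The largest fall of all 73 genes was also in the large subunit. mRpL28 (FBgn0031660, chromosome 2L, 4973976 to 4975316, plus strand), the counterpart of bacterial L28, had 83.6 and 87.4 CPM with dsRNA 2 and 78.2 and 74.6 CPM with dsRNA 3, against 227 and 209 CPM in the control libraries. The Hlc libraries sat close together and far under the controls, giving a log2 fold change of -1.43 (SE 0.05, adjusted p 5.27e-07). mRpL39 (FBgn0036462, chromosome 3L, 14997981 to 14999666, minus strand) is mitochondrion-specific. It had 82.3 and 84.8 CPM with dsRNA 2 and 65.7 and 66.8 CPM with dsRNA 3, against 127 and 126 CPM in the control libraries (-0.76, SE 0.04, adjusted p 3.76e-06). Replicates of this gene nearly coincided in every group. Both falls held with library size alone, at -0.85 for mRpL28 and -0.18 for mRpL39.

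Further large subunit genes are given by their place in the ribosome, chosen after their values were seen. Of the stalk and its base, mRpL12, whose bacterial counterpart draws translation factors to the ribosome, rose by 0.54 (SE 0.05, adjusted p 7.10e-05). It had 89.7 and 93.7 CPM with dsRNA 2 and 79.8 and 74.5 CPM with dsRNA 3, against 58.3 and 57.2 CPM in the control libraries, without overlap. mRpL10, the counterpart of the protein that anchors the stalk, passed narrowly at 0.21 (SE 0.08, adjusted p 0.0459), with its libraries overlapping. That call was lost when any library other than control replicate 1 was left out, with adjusted p between 0.0661 and 0.279. mRpL11, counterpart of the stalk base protein, had 0.21 (SE 0.12, adjusted p 0.162) and was not called, although leaving out control replicate 1 gave 0.39 (adjusted p 0.0498).

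Of the genes named here whose bacterial counterparts bind the core of the ribosomal RNA, 1 rose and 2 were not called. mRpL2 rose by 0.48 (SE 0.09, adjusted p 0.00337), with 36.8 and 43.2 CPM with dsRNA 2 and 36.3 and 33.9 CPM with dsRNA 3, against 28.4 and 25.4 CPM in the control libraries. mRpL3 had the smallest fitted change of the large subunit, at 59.9 ± 2.56 CPM in the Hlc libraries (SD, n = 4) and 60.03 ± 6.03 CPM in the control libraries (SD, n = 2). mRpL4 stood at -0.16 (SE 0.07, adjusted p 0.0735), not called. Near the peptidyl transferase centre, where peptide bonds form, mRpL27 rose by 0.46 (SE 0.15, adjusted p 0.0322) with overlapping libraries. Its call was lost without Hlc dsRNA 2 replicate 2 (adjusted p 0.0650) or either control library (0.0696 and 0.183). mRpL16, from the same neighbourhood in bacteria, fell by 0.32 on the TMM scale (SE 0.06, adjusted p 0.00181) but stood at 0.26 with library size alone.

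Around the exit of the peptide tunnel, where new chains leave, mRpL22 fell and mRpL23 was not called. mRpL22 had 86.2 and 90.8 CPM with dsRNA 2 and 80.6 and 76.5 CPM with dsRNA 3, against 120 and 103 CPM in the control libraries (-0.41, SE 0.07, adjusted p 0.00126), and turned to 0.17 with library size alone. mRpL23 had 0.12 (SE 0.15, adjusted p 0.528). mRpL24 fell by 0.29 (SE 0.08, adjusted p 0.0179) on the TMM scale and stood at 0.29 with library size alone. Without control replicate 1 the mRpL24 call was lost (adjusted p 0.101). mRpL45, which in mammals docks the ribosome at the membrane, had -0.20 (SE 0.07, adjusted p 0.0528) and was not called. mRpL44, related to RNase III nucleases, rose by 0.54 (SE 0.09, adjusted p 0.00168), with no Hlc library under 31.2 CPM and no control library over 26.03 CPM.

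In the small subunit, 8 genes rose, 6 fell and 12 were not called. The shares were 30.8% higher and 23.1% lower, against 32.2% and 32.6% of all tested features, so that of rises lay near the background. Among rises, mRpS18A (FBgn0051450, chromosome 3R, 8561917 to 8562593, minus strand) came first, with 30.01 and 30.1 CPM with dsRNA 2 and 23.7 and 19.7 CPM with dsRNA 3, against 13.8 and 14.9 CPM in the control libraries (0.83, SE 0.10, adjusted p 0.000252). mRpS10 (FBgn0038307, chromosome 3R, 15229665 to 15230516, plus strand), a head protein in bacteria, had 44.7 and 41.0 CPM with dsRNA 2 and 34.7 and 33.2 CPM with dsRNA 3, against 24.1 and 21.7 CPM in the control libraries (0.74, SE 0.08, adjusted p 0.000145). Both genes showed the same order of groups without overlap. mRpS14, also of the head, rose by 0.71 (SE 0.16, adjusted p 0.00623) with wide scatter, at 37.9 and 47.6 CPM with dsRNA 2 and 28.8 and 22.4 CPM with dsRNA 3, against 22.7 and 17.8 CPM in the control libraries. The lower dsRNA 3 library lay within the control range, and the call was lost without control replicate 2 (adjusted p 0.0557).

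The 3 paralogues of bacterial S18 differed in level and change. Beside the rise of mRpS18A, mRpS18B had the smallest fitted change of the small subunit, with 17.3 ± 1.43 CPM in the Hlc libraries (SD, n = 4) and 17.1 ± 0.478 CPM in the control libraries (SD, n = 2). mRpS18C rose by 0.48 (SE 0.13, adjusted p 0.0139), with 12.2 and 12.4 CPM with dsRNA 2 and 9.28 and 7.28 CPM with dsRNA 3, against 7.47 and 7.04 CPM in the control libraries. Without control replicate 2 the mRpS18C call was lost (adjusted p 0.0802). In mammalian structures the products of mRpS18A and mRpS30 belong to the large subunit in spite of their names. mRpS30 rose by 0.31 (SE 0.04, adjusted p 0.000465) with close replicates, at 120 and 117 CPM with dsRNA 2 and 118 and 116 CPM with dsRNA 3, against 94.6 and 95.7 CPM in the control libraries.

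The falls of the small subunit were led by mRpS22 (FBgn0039555, chromosome 3R, 27916908 to 27918248, plus strand), a mitochondrion-specific protein whose human counterpart is mutated in mitochondrial disease. It had 86.8 and 85.8 CPM with dsRNA 2 and 84.0 and 82.05 CPM with dsRNA 3, against 176 and 159 CPM in the control libraries (-0.98, SE 0.05, adjusted p 3.24e-06). The dsRNAs gave nearly the same level. mRpS9 (FBgn0037529, chromosome 3R, 7889277 to 7902667, minus strand), whose bacterial counterpart reaches the P site with its tail, had 59.9 and 61.0 CPM with dsRNA 2 and 60.3 and 64.9 CPM with dsRNA 3, against 109 and 99.9 CPM in the control libraries (-0.77, SE 0.06, adjusted p 1.78e-05). With library size alone both were still lower, at -0.40 for mRpS22 and -0.18 for mRpS9.

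mRpS28, another gene with a human disease counterpart, had 20.8 and 18.8 CPM with dsRNA 2 and 19.7 and 15.02 CPM with dsRNA 3, against 31.5 and 26.6 CPM in the control libraries (-0.65, SE 0.13, adjusted p 0.00356). mRpS5, whose bacterial counterpart affects decoding accuracy, had 76.5 and 72.5 CPM with dsRNA 2 and 72.0 and 66.1 CPM with dsRNA 3, against 104 and 106 CPM in the control libraries (-0.54, SE 0.05, adjusted p 7.70e-05). Groups did not overlap for either gene, but with library size alone mRpS28 stood at -0.065 and mRpS5 at 0.039, neither called. mRpS29, a GTP-binding protein known in mammals as DAP3, fell by 0.21 (SE 0.06, adjusted p 0.0175) and stood at 0.37 with library size alone. The mRpS29 call was also lost without Hlc dsRNA 2 replicate 2 or either control library, with adjusted p between 0.0566 and 0.0659.

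**Figure D2:**
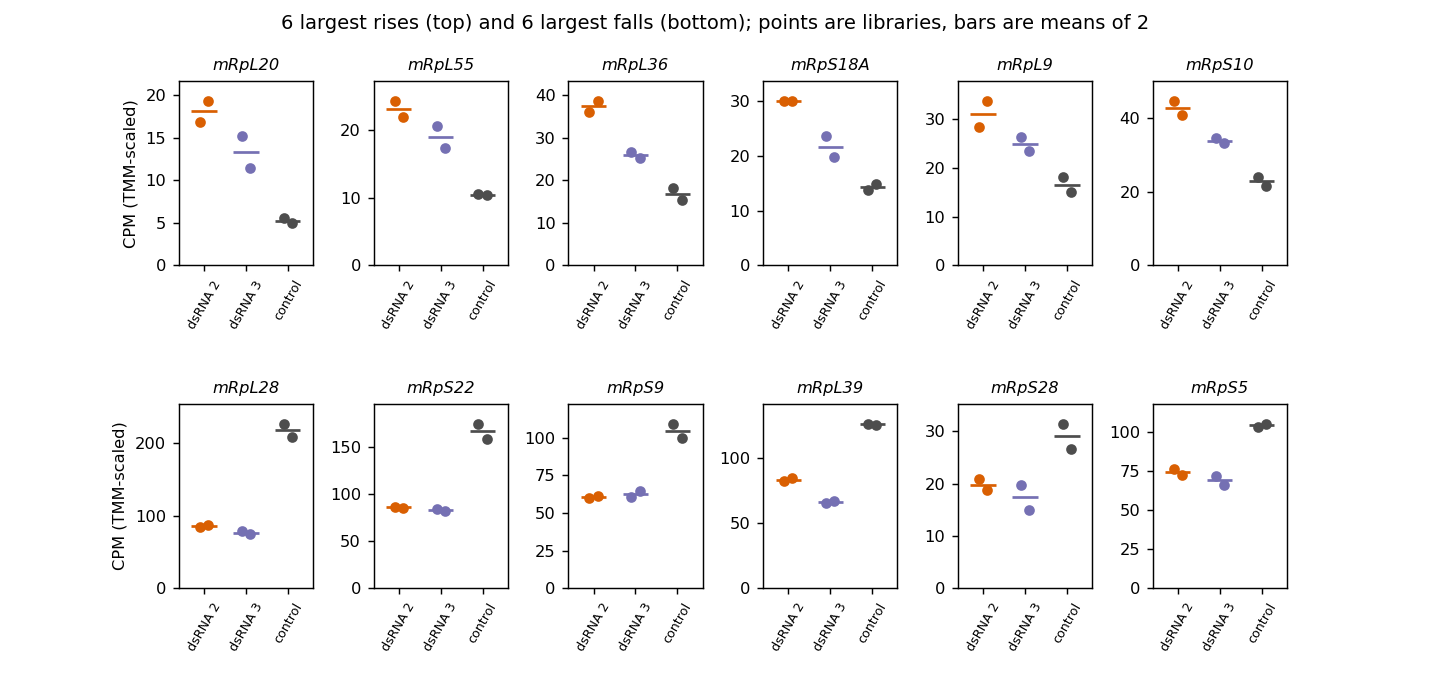
CPM (TMM-scaled, vertical axes starting at 0) of the 6 genes with the largest rises (top) and the 6 with the largest falls (bottom), with points for libraries and bars for means of 2, for Hlc dsRNA 2, Hlc dsRNA 3 and control. In all 12 genes the 4 Hlc libraries lie on one side of both control libraries; with library size alone the fall of mRpS28 shrinks to -0.065 and mRpS5 turns to 0.039.

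Large and small subunit genes were set side by side. The median log2 fold change was 0.17 over the large subunit and 0.019 over the small subunit, a difference of 0.15. Over 16 settings that difference ran between 0.031 and 0.26, the lowest without control replicate 2 and the highest without control replicate 1. The same omissions moved the large subunit median to 0.037 and 0.31. In each library, summed counts per kb of exonic length over large subunit genes were divided by those over small subunit genes. The ratio was 1.80 and 1.84 with dsRNA 2 and 1.84 and 1.83 with dsRNA 3, against 1.79 and 1.78 in the control libraries. It averaged 1.83 ± 0.02 in the Hlc libraries (SD, n = 4) and 1.78 ± 0.01 in the control libraries (SD, n = 2), and the lowest Hlc library (1.795) stood beside the highest control library (1.793). With mRpS18A and mRpS30 counted in the large subunit, the ratio was 2.09 and 2.12 with dsRNA 2 and 2.15 and 2.14 with dsRNA 3, against 1.98 and 1.98 in the control libraries. That assignment, added after seeing the data, left medians of 0.20 over 49 large subunit genes and -0.0080 over 24 small subunit genes. Genes with bacterial and with mitochondrial numbers were both mixed in direction. Among genes with bacterial numbers (up to 36 in the large and 21 in the small subunit), 12 of 28 large subunit genes rose and 7 fell (median 0.21). Of the 14 small subunit genes with such numbers, 5 rose and 3 fell (median 0.090). Among genes with mitochondrial numbers, 7 of 19 large subunit genes rose and 5 fell (median 0.072). Of the 12 small subunit genes with such numbers, 3 rose and 3 fell (median -0.071). Over all tested features 32.2% were called higher and 32.6% lower, with a median of 0.043.

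Levels per length lay closer together in the Hlc libraries than in the control libraries. The SD of log2 RPKM (CPM per kb of exonic length) over the 73 genes was 0.655 and 0.668 with dsRNA 2 and 0.647 and 0.677 with dsRNA 3, against 0.854 and 0.867 in the control libraries. The Hlc libraries averaged 0.662 ± 0.013 (SD, n = 4) and the control libraries 0.861 ± 0.009 (SD, n = 2), and the scaling factor cannot move this quantity. The highest level exceeded the lowest by 12.9-fold in the Hlc means and by 21.4-fold in the control means. A narrower spread was also seen over 10302 tested features detected in every library, at 3.24 ± 0.016 in the Hlc libraries and 3.47 ± 0.015 in the control libraries, and over cytosolic ribosomal protein genes, at 2.01 ± 0.062 in the Hlc libraries and 2.20 ± 0.0066 in the control libraries. Over 67 nuclear-encoded respiratory chain genes it was 2.51 ± 0.137 in the Hlc libraries and 2.40 ± 0.030 in the control libraries. Without mRpL28 the 72 other genes still gave 0.642 to 0.671 in the Hlc libraries and 0.810 to 0.824 in the control libraries. The order of levels changed at both ends. mRpL28 had 69.2 ± 4.84 RPKM in the Hlc libraries (SD, n = 4), the 4th highest of the 73, and 186 ± 10.9 RPKM in the control libraries (SD, n = 2), the highest. mRpL12 ranked 1 with 114 ± 11.97 RPKM in the Hlc libraries and 6 with 78.2 ± 1.08 RPKM in the control libraries. mRpL22 ranked 2 with 85.9 ± 6.42 RPKM in the Hlc libraries and 3 with 114 ± 12.02 RPKM in the control libraries. mRpS9 ranked 24 in the Hlc libraries and 5 in the control libraries, and mRpS22 ranked 8 in the Hlc libraries and 2 in the control libraries. At the low end mRpL20 ranked 58 with 26.1 ± 5.50 RPKM in the Hlc libraries and 73, the last place, with 8.71 ± 0.660 RPKM in the control libraries. The lowest levels over all 6 libraries belonged to mRpS6, mRpL34 and mRpL50, whose changes were not called.

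**Figure D3:**
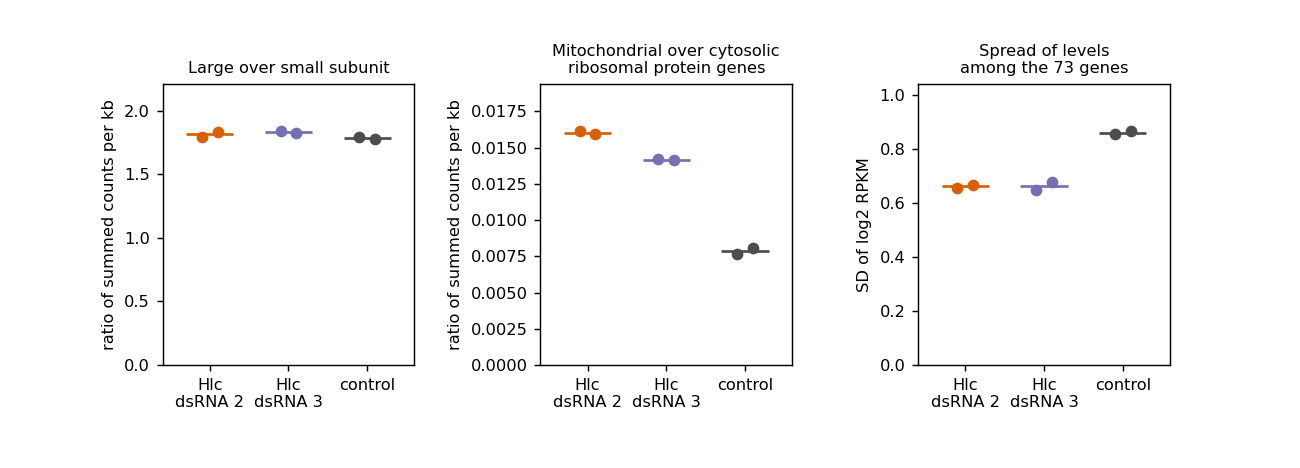
For each library (points, bars are means of 2) of Hlc dsRNA 2, Hlc dsRNA 3 and control, the ratio of summed counts per kb of large over small subunit genes, the same ratio of mitochondrial over cytosolic ribosomal protein genes, and the SD of log2 RPKM over the 73 genes; all axes start at 0. The first ratio lies between 1.78 and 1.84 everywhere, the ratio to cytosolic genes is higher in every Hlc library, and the spread is lower in every Hlc library.

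The dsRNAs differed in how many genes rose or fell. With dsRNA 2, 34 of the 73 genes rose, 11 fell and 28 were not called, with a median of 0.30, while 60.7% of all features were called (30.4% higher, 30.3% lower). With dsRNA 3, 16 rose, 27 fell and 30 were not called, with a median of -0.080, while 61.6% of all features were called (29.9% higher, 31.6% lower). The split with dsRNA 3 rests on the scaling, with 52 higher and 3 lower with library size alone and 21 higher and 20 lower with the length trend removed. With dsRNA 2 the same fits gave 66 higher and 3 lower, and 31 higher and 12 lower. Library size alone also moves the median of all features to 0.62 with either dsRNA. The shares of all features called in these fits were not counted for each dsRNA. Both comparisons share the control libraries. 16 genes rose with both and 11 fell with both. Another 18 were called higher with dsRNA 2 alone and 16 lower with dsRNA 3 alone, 12 were called with neither, and 0 were called in opposite directions. Such joint calls were not counted over all tested features, so these counts are not read as particular to the 73 genes. For 3 genes both dsRNA 2 libraries and both dsRNA 3 libraries lay on opposite sides of the control libraries, a pattern seen in 1.38% of all tested features.

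Set directly against dsRNA 2, dsRNA 3 gave lower fitted values for 71 of 73 genes, with a median difference of -0.32 on the log2 scale, against -0.0014 over all features. Other lists also leaned this way, with fitted values below 0 for 60 of 67 respiratory chain genes (median -0.25), 70 of 85 cytosolic ribosomal protein genes (-0.15), 15 of 18 genes of mitochondrial DNA expression (-0.17) and 8 of 8 mitochondrial translation factors (-0.11). Medians lay nearer 0 for 15 mitochondrial aminoacyl-tRNA synthetase genes (10 below 0, -0.058) and 13 mitochondrially encoded protein genes (10 below 0, -0.066). Of the 2 mitochondrial ribosomal RNAs, 1 lay below 0. By edgeR 0 members were called, against 0.0797% of all features, and the smallest adjusted p was 0.0586, of mRpL39. At an unadjusted p under 0.05 edgeR counted 49 members, all lower with dsRNA 3, against 20.3% of all features. DESeq2 called 33 members, all lower, against 10.9% of all features, and limma-voom called 10, all lower, against 2.9%. The widest fitted difference was that of mRpS14, at -0.74 (adjusted p 0.102), and mRpS21 followed at -0.72 (adjusted p 0.0937). The exceptions were mRpS9 at 0.052 and mRpS29 at 0.0012. Members made up 0.325% and 0.334% of all counts with dsRNA 2 and 0.285% and 0.266% with dsRNA 3, against 0.219% and 0.213% in the control libraries. Summed and TMM-scaled, they came to 2833 and 2967 CPM with dsRNA 2 and 2501 and 2290 CPM with dsRNA 3, against 2921 and 2742 CPM in the control libraries. Their share of counts was thus highest with dsRNA 2 and lowest in the control libraries, while the TMM-scaled sum was lowest with dsRNA 3.

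Gene length moved with these differences. The members are short, with exonic lengths of 327 to 2078 bases and a median of 783, against 2025 over tested features. Across the 73 genes, the difference of dsRNA 3 minus dsRNA 2 correlated with length (Spearman 0.70), and across all tested features with a length the value was 0.39. All points share the same 4 libraries, so these are descriptions. Against control the correlation with length was -0.42 across the members and 0.04 across all features. Among the 25 shortest members, of at most 707 bases, 12 rose and 3 fell (median 0.43). Among the 24 longest, of at least 932 bases, 7 rose and 11 fell (median -0.18), and the 24 between had 8 rises and 4 falls (median 0.093). Of all tested features, whatever their length, 32.2% were called higher and 32.6% lower. Shares among features of like length were not counted, so these counts are not read as particular to the members. With the trend of each library on exonic length removed, an alternative added after seeing the data, 66 members stayed lower with dsRNA 3 than with dsRNA 2. The median difference was then -0.16, with 0 called by edgeR, against 0.249% of all features, and 17 at an unadjusted p under 0.05, against 14.4%. The median over all features was -0.024. In that fit 52 of 67 respiratory chain genes (median -0.13) and 46 of 85 cytosolic ribosomal protein genes (-0.011) lay below 0. So did 16 of 18 genes of mitochondrial DNA expression (-0.12) and 8 of 8 mitochondrial translation factors (-0.074). Against control that fit gave 29 rises and 18 falls, with 33% and 32.1% of all features higher and lower. Medians by length were 0.40, 0.12 and -0.086 from the shortest to the longest group. What sets the length trend was not tested.

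**Figure D4:**
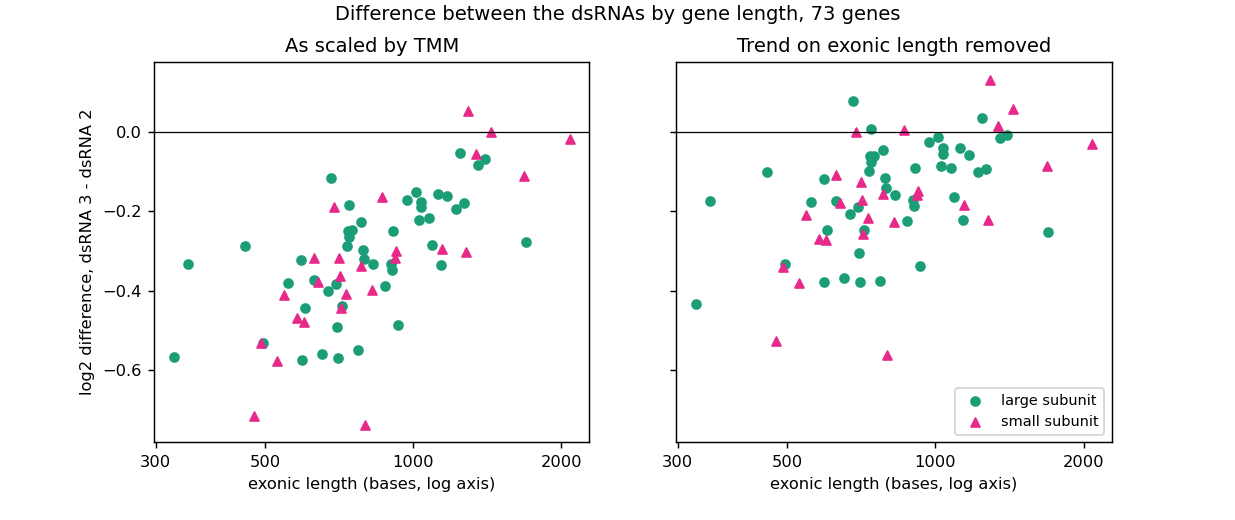
Log2 difference of dsRNA 3 minus dsRNA 2 (vertical axis) against exonic length in bases (log axis) for the 73 genes, as scaled by TMM and with the trend on exonic length removed; circles are large subunit and triangles small subunit genes. With TMM 71 of 73 points lie under 0 and the shortest genes lie lowest; with the trend removed 66 lie under 0 around a median of -0.16.

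Members lie on every large chromosome arm, 12 on 2L, 12 on 2R, 17 on 3L, 21 on 3R and 11 on X. Of the 73, 43 share exon bases with another annotated gene and 8 share over 20%, and since the labels do not say whether counting used strand, reads of these 8 may be divided uncertainly. All exon bases of mRpL53 lie in other genes, among them AGO1 on the opposite strand, which rose by 0.99, and CG33155 on the same strand, which fell by 0.82. mRpL53 itself fell by 0.48 on the TMM scale (SE 0.08, adjusted p 0.00150) and stood at 0.10 with library size alone. mRpS9 shares 25.1% of its bases with ArgRS-m on the opposite strand, which rose by 1.18 where mRpS9 fell. mRpS14 shares 35.8% with CG32533 (-0.40) and Naa15-16 (-0.21), both lower where mRpS14 rose. The other 5 are mRpS24 (55.3%), mRpS21 (48%), mRpL13 (35.2%), mRpL17 (23.6%) and mRpL48 (20.8%). Of their partners, frtz, on the strand opposite mRpL48, fell by 0.68 where mRpL48 fell. CG10602 stood at -0.13 where mRpL13 rose, and TBC1d7, opposite mRpS24, stood at 0.14 and was not called. CG8870, opposite mRpS21, and CG34263, opposite mRpL17, had only 43 and 36 counts over all 6 libraries. The narrow calls of mRpL13 (0.34, adjusted p 0.0462) and mRpL48 (-0.19, adjusted p 0.0385) were each lost in 5 of the 6 fits that left out a library, and mRpL48 stood at 0.39 with library size alone.

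The remaining genes of mitochondrial translation were read from gene lists. The technical knockout gene tko codes for the S12 protein of the decoding centre and is known for bang-sensitive flies. It had 39.5 and 39.0 CPM with dsRNA 2 and 32.2 and 28.1 CPM with dsRNA 3, against 25.8 and 23.4 CPM in the control libraries (0.48, SE 0.09, adjusted p 0.00199). bonsai, which codes for S15, had 29.6 ± 1.99 CPM in the Hlc libraries (SD, n = 4) and 31.1 ± 0.243 CPM in the control libraries (SD, n = 2) and was not called. Of 8 mitochondrial translation factors, 4 rose, 3 fell and 1 was not called on the TMM scale. With library size alone 5 were higher and 1 lower, against 56.1% and 16.1% of all features. The following changes are on the TMM scale. mIF2, the initiation factor that brings the initiator tRNA, rose by 1.15 (SE 0.11), and mEFG1, the translocase, rose by 1.01 (SE 0.10). mEFTs, the exchange factor of EF-Tu, rose by 0.52 (SE 0.05, with an edgeR adjusted p of at most 0.000108 for these 3). mEFTu2, an EF-Tu that delivers charged tRNA, fell by 0.98 (SE 0.07), to 35.5 ± 3.28 CPM in the Hlc libraries, against 69.8 ± 3.50 CPM in the control libraries. The genes mEFTu2 and mEFTs thus moved apart.

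Of 15 mitochondrial aminoacyl-tRNA synthetase genes, which charge tRNAs, 8 rose, 3 fell and 4 were not called, with a median of 0.30. ValRS-m rose by 1.72 (SE 0.15), SerRS-m by 1.10 (SE 0.07) and MetRS-m by 0.76 (SE 0.08), while AlaRS-m fell by 0.64 on the TMM scale (SE 0.04) but stood at -0.057, not called, with library size alone, where the list had 13 higher and 0 lower. The genes of mitochondrial DNA expression and RNA handling gave 3 rises and 5 falls among 18, and 13 rises and 1 fall with library size alone. In that scaling 56.1% of all features were called higher and 16.1% lower. On the TMM scale the protease genes Lon (-0.58, SE 0.04) and ClpP (-0.69, SE 0.05) fell, as did bsf, a mitochondrial RNA-binding protein, by 0.45. With library size alone Lon stood at -0.0019 and ClpP at -0.11, neither called, and bsf at 0.13. tam, the catalytic subunit of the mitochondrial DNA polymerase, rose by 0.53 (SE 0.07). Each of these 8 named calls had an edgeR adjusted p of at most 0.000403.

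The mitochondrial ribosomal RNAs and messengers went opposite ways in these poly(A) libraries. mt:lrRNA, the large ribosomal RNA, had 2492 and 2617 CPM with dsRNA 2 and 2812 and 2013 CPM with dsRNA 3, against 5822 and 5199 CPM in the control libraries (-1.15, SE 0.12, adjusted p 0.000140). mt:srRNA was scarce, at 0.841 ± 0.134 CPM in the Hlc libraries (SD, n = 4) and 2.96 ± 0.775 CPM in the control libraries (SD, n = 2), and fell by 1.82 (SE 0.24). Both falls kept their direction with library size alone, with a median of -0.90. Of 13 mitochondrially encoded protein genes, 12 rose and 1 was not called, with a median of 1.07. mt:ND1 rose by 1.51 (SE 0.08), mt:ND5 by 1.07 (SE 0.10), mt:ND3 by 2.34 (SE 0.31) and mt:Cyt-b by 0.65 (SE 0.09), each with an edgeR adjusted p of at most 0.000412. Poly(A) selection captures these RNAs by their tails, and whether tails differed between groups was not tested.

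Nuclear-encoded respiratory chain genes were also mixed, with 15 rises, 13 falls and 39 not called among 67 tested of 80 listed, and a median of 0.058. With library size alone 57 of them were higher and 2 lower, against 56.1% and 16.1% of all features. With dsRNA 2 there were 23 rises and 6 falls, and with dsRNA 3 there were 7 rises and 17 falls. UQCR-C1, a core subunit of complex III, fell by 1.21 (SE 0.05), and the succinate dehydrogenase subunit SdhA fell by 0.71 (SE 0.04). SdhB and ND-B16.6 fell by 0.57 and 0.46 on the TMM scale but stood at 0.010 and 0.13 with library size alone. The cytosolic ribosomal protein genes instead fell nearly as a block, with 81 of 85 tested genes lower, 1 higher and a median of -0.94. RpL3 fell by 1.51, RpL22 by 1.30, RpL23A by 1.16 and sta by 1.15 (SE 0.05 to 0.07, adjusted p of at most 2.1e-06). With library size alone 73 of these 85 remained lower. Within a library, summed counts per kb of the mitochondrial over the cytosolic ribosomal protein genes came to 0.0161 and 0.0159 with dsRNA 2 and 0.0142 and 0.0141 with dsRNA 3, against 0.00765 and 0.00808 in the control libraries. Turned round, cytosolic genes exceeded mitochondrial ones 62.0- and 62.8-fold with dsRNA 2 and 70.2- and 70.9-fold with dsRNA 3, against 131- and 124-fold in the control libraries. The ratio to respiratory chain genes was 0.3048 and 0.3046 with dsRNA 2 and 0.2867 and 0.2874 with dsRNA 3, against 0.2996 and 0.3088 in the control libraries. The balance with cytosolic ribosomal protein genes thus changed in every Hlc library, while that with respiratory chain genes was lower only with dsRNA 3.

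**Figure D5:**
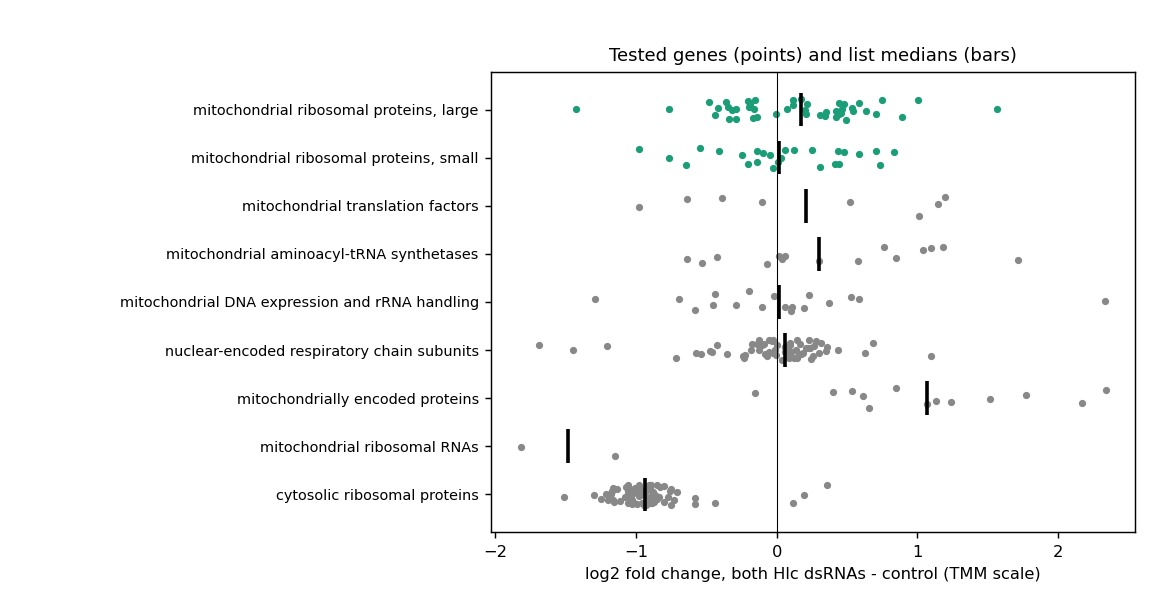
Log2 fold change of both Hlc dsRNAs against control (TMM scale, horizontal axis) for each tested gene (points) of the 2 subunits and 7 other gene lists, with bars at list medians. Mitochondrially encoded proteins centre on 1.07 and cytosolic ribosomal proteins on -0.94, and the mitochondrial ribosomal protein genes spread on both sides of 0 with medians of 0.17 and 0.019. With library size alone the subunit medians are 0.76 and 0.60, against 0.62 over all features.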

How the data were processed

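Poly(A) RNA of 6 S2 libraries, 2 per group, was sequenced from TruSeq libraries, per the labels' protocols. The authors deposited whole-number counts per annotated feature without normalization. The submitters' processing notes list Trimmomatic 0.36, TopHat2 2.1.0, StringTie 2.1.7 and build BDGP6 but do not say what each did. How reads were counted, and with which strand setting, is not given in the sources used here. Columns were matched to libraries by name. Positions, exonic lengths and overlaps came from the Ensembl annotation of BDGP6.54 (release 115), where all 73 members were found.

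Counts were filtered with filterByExpr, TMM-scaled and fitted in edgeR 4.0.16 (R 4.3.3, quasi-likelihood F test) in 1 fit with a term per group and 3 residual degrees of freedom. Benjamini-Hochberg adjustment ran over 11293 features, and calls were made at 0.05. SE is the size of the log2 fold change over the root of F. Alternatives used DESeq2 1.42.0 and limma 3.58.1, other scalings and filters, a replicate block and omitted libraries. The length fit took a lowess span of 0.3, and the script was tested on simulated data. As a check for libraries deposited more than once, replicate counts were compared, and no pair agreed within counting noise (a chi-square of 29.6 to 41.0 per degree of freedom).

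Members and lists were chosen with earlier results of these data known. The rule for named genes took the 6 largest rises and falls called and moving alike with each dsRNA, the 3 highest and 3 lowest levels, the smallest change per subunit, tko, bonsai, Hlc and up to 4 genes per list by adjusted p. Members named for their role in the ribosome, their overlap with other genes or their contrast between the dsRNAs were added after their values were seen.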

Additional observations from a re-analysis of the deposited data

Results flagged for a closer look

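3 small subunit genes stood out because dsRNA 2 and dsRNA 3 libraries lay on opposite sides of both control libraries, as they did for 1.38% of all tested features. mRpS7, a head protein in bacteria, had 45.6 and 48.1 CPM with dsRNA 2 and 36.2 and 38.9 CPM with dsRNA 3, against 40.5 and 40.3 CPM in the control libraries. The difference of dsRNA 3 minus dsRNA 2 was -0.32 on the log2 scale (edgeR adjusted p 0.0950). mRpS11, a platform protein in bacteria, had 36.9 and 37.5 CPM with dsRNA 2 and 28.4 and 27.7 CPM with dsRNA 3, against 30.6 and 32.7 CPM in the control libraries, with a difference of -0.41 (edgeR adjusted p 0.0842). mRpS26, a mitochondrion-specific protein, had 69.7 and 74.1 CPM with dsRNA 2 and 58.6 and 50.4 CPM with dsRNA 3, against 62.4 and 65.0 CPM in the control libraries, with a difference of -0.40 (edgeR adjusted p 0.0883). None of the 3 differences passed the edgeR test at 0.05, while DESeq2 called all 3 (adjusted p 0.00919, 0.000351 and 0.00137 in the order above) and limma-voom called mRpS11 and mRpS26 (adjusted p 0.0446 and 0.0488). With the trend on exonic length removed, the differences were -0.16 for mRpS7, -0.22 for mRpS11 and -0.23 for mRpS26 (edgeR adjusted p 0.418, 0.296 and 0.2065).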

How the results depend on the processing

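Scaling moved the results most. With library size alone, 63 members were higher and 4 lower against control, with 56.1% and 16.1% of all features higher and lower. That scaling gave 69 calls with dsRNA 2. Its subunit medians were 0.76 (large) and 0.60 (small), against 0.62 over all features. Upper-quartile factors gave medians of 0.32 and 0.16, against 0.19 over all features. Fitted changes against control were below 0 for 32 members with TMM and for 5 with library size alone. Of the genes named here, library size alone turned mRpL3 (0.58), mRpL4 (0.42), mRpL16 (0.26), mRpL22 (0.17), mRpL24 (0.29), mRpL38 (0.24), mRpL45 (0.39), mRpL48 (0.39), mRpL53 (0.10), mRpS5 (0.039), mRpS6 (0.44), mRpS26 (0.56), mRpS29 (0.37), bonsai (0.51), bsf (0.13), SdhB (0.010) and ND-B16.6 (0.13) positive. Members not named here turned as well. The difference between the dsRNAs depended on the test, with 3 members called under a filter of 1 CPM in at least 4 libraries, 33 by DESeq2 and 10 by limma-voom. DESeq2 called 10.9% of all features and limma-voom 2.9%, and the share under the 1 CPM filter was not counted. Moving mRpS18A and mRpS30 to the large subunit took the small subunit median to -0.0080 and the large over small ratios to 2.09, 2.12, 2.15 and 2.14 in the Hlc libraries and 1.98 and 1.98 in the control libraries. Without length scaling the ratios were 1.65, 1.71, 1.66 and 1.63 in the Hlc libraries and 1.64 and 1.61 in the control libraries. Leaving out each library in turn gave 20 to 30 rises, 13 to 18 falls, 33 to 48 calls with dsRNA 2, 31 to 38 with dsRNA 3 and 0 to 4 between the dsRNAs, with medians of 0.037 to 0.31 (large) and 0.0054 to 0.046 (small). Shares of all features called in these fits, and with dsRNA 2 under library size alone, were not counted. Replicate numbers did not pair the libraries (correlations of replicate differences -0.113 to 0.086), and a replicate block gave 24 rises and 17 falls. A fit of only the groups compared could not be had for both dsRNAs together, which need all 3 groups. The cause of these changes was not tested. Each member had at least 162 counts in every library, and each group had 2 libraries; which of these limits the calls was not tested.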
